A study of Mus musculus with 6 samples.

Results

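Of 26014 genes measured in mouse fetal liver, 96 carried the name of a cytosolic ribosomal protein gene. They were taken by name and annotation alone, as protein-coding genes called Rpl or Rps followed by a number, together with Rplp0, Rplp1, Rplp2 and Rpsa, and without the 10 Rps6k genes, which encode kinases. They comprised 77 core genes (43 of the large subunit, 31 of the small subunit and the 3 stalk genes), 7 paralogs, 11 genes whose names carry the pseudogene ending -ps although they are annotated as protein-coding, and Rps19bp1. That last gene matches the naming rule, but its annotated product, an active regulator of SIRT1, is not a ribosomal protein.

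RNA came from untreated fetal livers at embryonic day 14.5, with 3 wild-type libraries (WT) and 3 libraries of a knockout labelled as affecting the 3′UTR of Gata1 (KO). The stated aim was to find what differs during fetal erythropoiesis. Embryonic hepatocyte is the labelled cell type and no sort is mentioned. The labels neither give the extent of the deletion nor tie the libraries to different embryos. P-values therefore measure the spread between these 6 samples, and that spread may be technical.

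Each cytosolic ribosome joins a large and a small subunit, and every protein of a subunit is made from its own gene and needed in a matched amount. Their messenger RNAs are among the most abundant of growing cells and begin with a run of pyrimidines (the TOP motif) through which mTOR and LARP1 control their translation. In people, losing 1 copy of any of several of these genes causes Diamond-Blackfan anaemia, a failure of red cell production in which the translation of GATA1 messenger RNA is reduced.

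Levels are given as FPKM, a fragment count divided by exon length and by the depth of the library. Depth, read from the steps between low values, was 14797000 to 16175000 fragments in WT and 15596500 to 16122000 in KO, and 20235 to 21290 genes were above 0 in each library. Gata1, the targeted transcription factor of red cells and megakaryocytes, measured 142.9, 141.8 and 165.8 FPKM in WT and 67.2, 67.7 and 68.2 FPKM in KO. Every KO library lay below every WT library, at 45.1% of the WT mean (log2 fold change -1.13, SE 0.069, limma adjusted p = 0.000638). Fragments missing from a deleted 3′UTR would lower this value too. Globin chains made up 22.4% to 29.6% of the summed FPKM of a library, and hepatoblast markers summed to 404.2 to 2395 FPKM, so red cell transcripts were far above those of the labelled cell type. In WT replicate 1 a 57-base gene annotated as a microRNA, Gm23935, reached 66609 FPKM, 13.5% of that library's summed FPKM, against 2082 to 6199 FPKM in the other 5 libraries.

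The ribosomal protein genes took a larger share of the transcripts in every KO library than in any WT library. Their summed FPKM was 6.58%, 8.40% and 8.66% of the library in WT replicates 1, 2 and 3, and 9.51%, 9.39% and 9.25% in KO. Counted as fragments, which a short gene such as Gm23935 hardly moves, the share was 5.82%, 6.26% and 6.54% in WT and 6.91%, 6.87% and 6.80% in KO. WT replicate 1 was the lowest of the 6, and the groups did not overlap by either of these measures. As a share of summed FPKM outside the globins they did overlap: 8.95%, 11.6% and 12.299% in WT and 12.5%, 12.103% and 12.303% in KO, so KO replicate 2 lay below WT replicate 3. An exact permutation test with 3 against 3 libraries cannot go below p = 0.1, so no p is given for the share. Globin shares were lower in every KO library than in any WT library. They were 9.97%, 8.68% and 9.55% of the fragments in WT and 7.33%, 6.93% and 7.71% in KO. In bulk tissue, fewer cells of a type and less RNA per cell cannot be told apart.

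**Figure D1:**
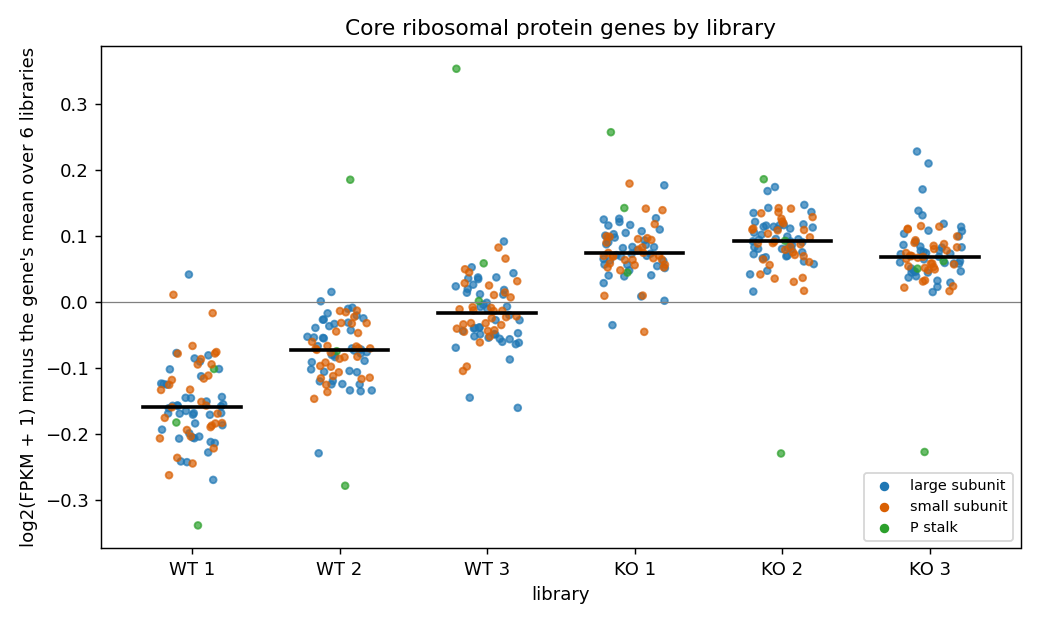
Deviation of each tested core ribosomal protein gene from its own mean over the 6 libraries, on the log2(FPKM + 1) scale, by library, with points coloured by subunit and black bars at the median of the 76 genes. The WT medians sit between -0.16 and -0.02 and the KO medians between 0.07 and 0.09, and the few stalk points far from the rest include Rplp0.

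Differences of single genes were small, and few passed the test. Of the 96 genes, 90 had a mean of at least 1 FPKM and were tested with limma on log2(FPKM + 1), with Benjamini-Hochberg adjustment over all 11142 genes tested. Of the 90, 5 genes (5.56%) were higher in KO at an adjusted p under 0.05, close to the 5.93% of all tested genes that were called higher. None was lower, against 3.62% of all tested genes. At an unadjusted p under 0.05, 57 of the 90 passed, all of them higher, where 21.2% of all tested genes did so. The log2 fold change was positive in 88 genes, with a median of 0.16 and quartiles of 0.12 and 0.19, and 71.4% of all tested genes were positive too, with a median of 0.09.

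In 68 of the 90 genes (75.6%) all KO libraries lay above all WT libraries, which was so for 26.8% of all tested genes. In none did all KO libraries lie below, against 8.8% of all tested genes. This count rests on how libraries are scaled. Among the 76 tested core genes, 63 had KO above WT as deposited and 64 without WT replicate 1, where 33.5% of all tested genes did. After scaling each library by the median of its ratios over all genes, 2 of the 76 core genes and 4 of the 90 did, below the 12% of all tested genes. With that scaling the median log2 fold change of the 90 was 0.05 against -0.01 for all tested genes, 71 of the 90 stayed positive against 48.6% of all, and 0 passed. Calls over all genes moved with it, from 661 higher and 403 lower as deposited to 219 higher (1.97%) and 450 lower (4.04%).

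The order of the libraries was shared by most core genes. WT replicate 1 held the lowest value in 63 of the 77, WT replicate 2 in 13 and WT replicate 3 in 1. The highest value fell in KO replicate 2 for 38, in KO replicate 1 for 22, in KO replicate 3 for 13 and in WT replicate 3 for 4. The median deviation from a gene's own mean was -0.16, -0.07 and -0.02 in WT and 0.07, 0.09 and 0.07 in KO on the log2(FPKM + 1) scale. Over all tested genes these medians were -0.06, 0.00 and -0.08 in WT and 0.06, 0.05 and 0.03 in KO, so that WT replicate 3 stood at the bottom there and not WT replicate 1.

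**Figure D2:**
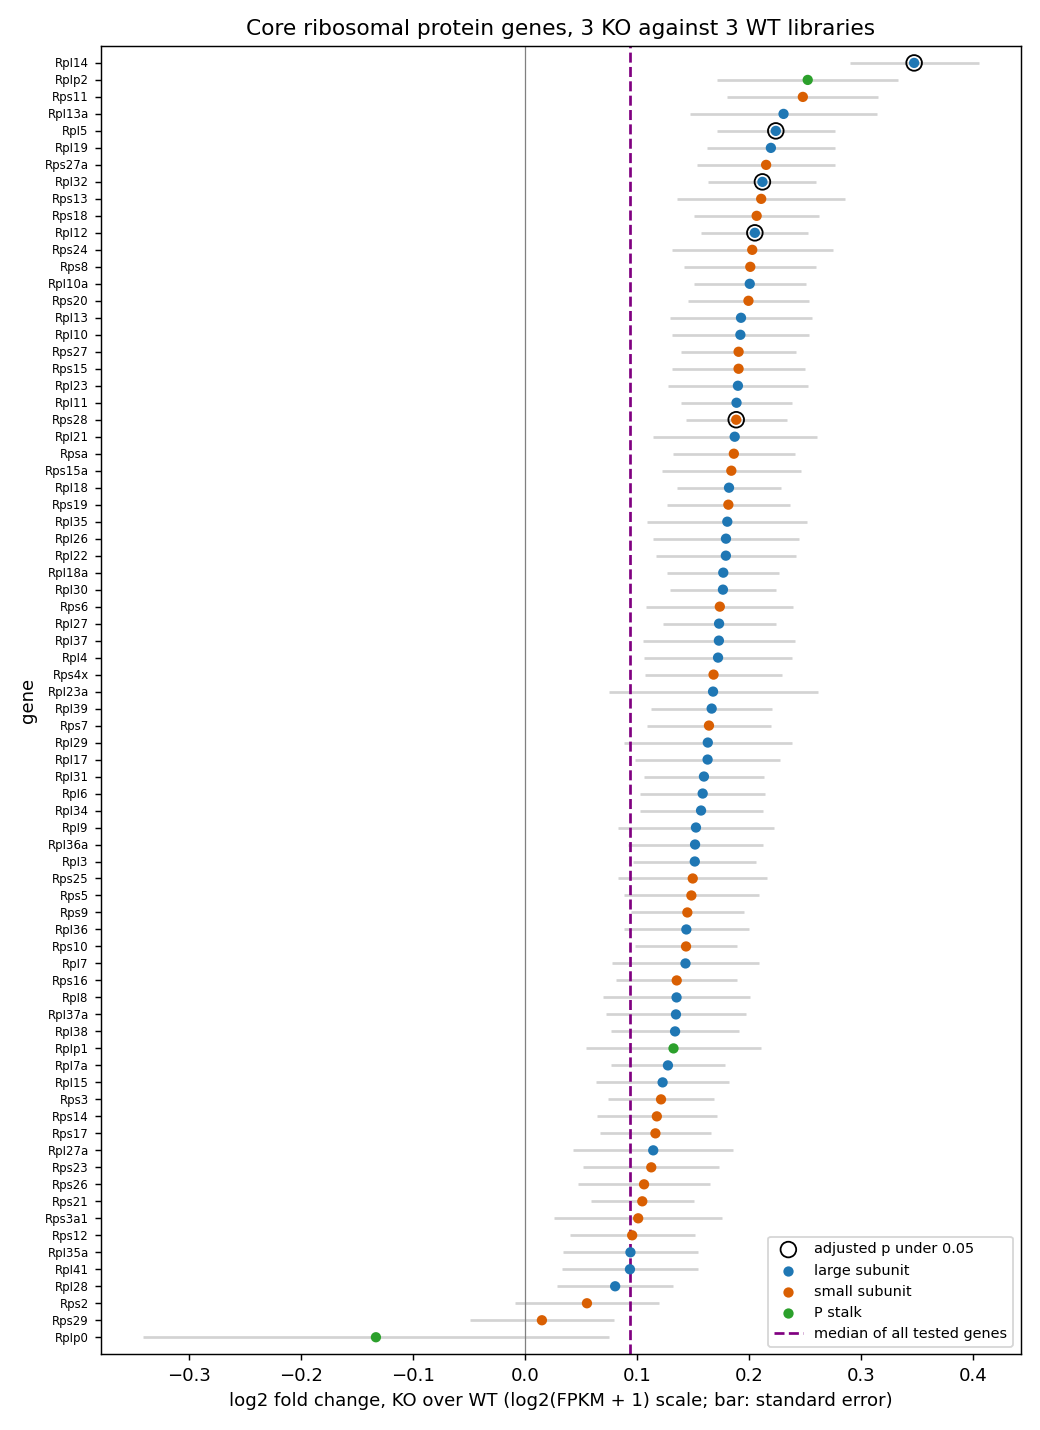
Log2 fold change of the 76 tested core genes, KO over WT on the log2(FPKM + 1) scale, with standard errors, colours for the subunit, rings for adjusted p under 0.05 and a dashed line at the median of all tested genes. All but Rplp0 lie above 0, Rpl14 stands highest at 0.35, and with median-of-ratios scaling 63 of the 76 are positive.

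Among the 43 large subunit genes, 42 were tested, with a median log2 fold change of 0.17 and a range of 0.08 to 0.35. As deposited, 4 (9.52%) rose in KO and 35 (83.3%) had KO above WT, where 5.93% and 26.8% of all tested genes did. The 4 were Rpl14, Rpl32, Rpl12 and Rpl5. The largest change was that of Rpl14, whose product has counterparts in archaea but not in bacteria. Rpl14 (chr9:120571444-120574654, GRCm38) measured 379.2, 424.7 and 413.4 FPKM in WT and 516.9, 516.0 and 514.7 FPKM in KO. The KO libraries agreed within 3 FPKM and lay above every WT library. The mean rose from 405.8 ± 23.7 to 515.9 ± 1.11 FPKM (SD, n = 3 each), 127.1% of WT (log2 fold change 0.35, SE 0.058, limma, adjusted p = 0.0178). Its processed pseudogene Rpl14-ps1, outside the naming rule because of its annotation, rose from 279.1 ± 18.2 to 354.0 ± 4.94 FPKM (log2 fold change 0.34, limma, adjusted p = 0.0214). Fragments of such close copies may be shared between them, and the rule for assigning them was not stated in the sources used here. Relative to the other ribosomal protein genes, with libraries scaled to the median of these genes, Rpl14 was at 0.19 and missed the threshold (limma, adjusted p = 0.0544). With median-of-ratios scaling it was at 0.23 (limma, adjusted p = 0.136). The call was kept without each WT library in turn and lost without each KO library (limma, adjusted p up to 0.0900).

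The other 3 large subunit genes changed by less. Rpl32 (chr6:115805505-115808747) measured 477.2, 490.5 and 502.6 FPKM in WT and 571.8, 558.7 and 572.6 FPKM in KO. Rpl12 (chr2:32961559-32965345), which lies at the base of the stalk, measured 199.3, 209.1 and 213.3 FPKM in WT and 234.9, 241.2 and 240.8 FPKM in KO. In both genes WT replicate 1 was lowest and the groups did not overlap. Their log2 fold changes were 0.21 for each, with standard errors of 0.048 (limma, adjusted p = 0.0419 and 0.0452). Rpl5 (chr5:107900502-107909005) binds 5S ribosomal RNA together with Rpl11 and, when free, restrains Mdm2. It measured 225.7, 248.5 and 243.0 FPKM in WT and 282.0, 277.2 and 278.2 FPKM in KO, again with no overlap (log2 fold change 0.22, SE 0.053, limma, adjusted p = 0.0464). The partner Rpl11 measured 203.2, 215.2 and 220.4 FPKM in WT and 243.2, 245.8 and 239.1 FPKM in KO. It had a like fold change of 0.19, and it missed the threshold (SE 0.050, limma, adjusted p = 0.0610). Without any single library, the Rpl32 and Rpl12 calls were lost (limma, adjusted p 0.0590 to 0.166 and 0.0579 to 0.177), and the Rpl5 call held only without WT replicate 2 (0.0440 to 0.170).

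The 31 small subunit genes were all tested, with a median log2 fold change of 0.16 and a range of 0.02 to 0.25. As deposited, 1 (3.23%) rose, below the 5.93% of all tested genes, and 27 (87.1%) had KO above WT against 26.8% of all. The gene that rose was Rps28 (chr17:33819027-33824562), whose product lies near the messenger RNA exit channel. It measured 86.1, 84.4 and 84.9 FPKM in WT and 94.6, 100.4 and 96.5 FPKM in KO. Here the WT libraries were the closer group, and WT replicate 1 was the highest of them. The difference passed the test (log2 fold change 0.19, SE 0.045, limma, adjusted p = 0.0480), and the call was lost without any single library (0.0656 to 0.195). At the other end, Rps29 measured 307.3, 281.5 and 323.0 FPKM in WT and 295.6, 312.6 and 312.0 FPKM in KO, with the groups mixed. Its log2 fold change was 0.02 (SE 0.064, limma, adjusted p = 0.896) and turned negative, to -0.10, with median-of-ratios scaling. Rps2, which lies at the messenger RNA entry channel and was the most abundant small subunit gene, was at 1617 ± 92.0 FPKM in WT and 1679 ± 29.9 FPKM in KO, a log2 fold change of 0.06 that became -0.06 with that scaling.

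The first 15 bases before and after the annotated start show how these promoters differ in their runs of pyrimidines. TOP messenger RNAs are named for such a run at their start. Windows below come from RefSeq on GRCm38.p6, written along the gene's strand, and capitals mark the longest unbroken run of C and T. That run need not touch the start. Shown are 4 of the 5 genes that rose (Rpl32 has no window in the table), Rps19, and Rpl7a and Rpl35 as examples of long runs.
Rpl14 (chr9:120571502-120571531, plus strand): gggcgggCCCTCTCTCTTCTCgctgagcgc
Rpl12 (chr2:32961697-32961726, plus strand): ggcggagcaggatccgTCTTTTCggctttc
Rpl5 (chr5:107900513-107900542, plus strand): TCTCacgtcgcttgcgtgctggtggtgcta
Rps28 (chr17:33824548-33824577, minus strand): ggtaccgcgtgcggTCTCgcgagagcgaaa
Rps19 (chr7:24884577-24884606, plus strand): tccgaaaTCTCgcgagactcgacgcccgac
Rpl7a (chr2:26910792-26910821, plus strand): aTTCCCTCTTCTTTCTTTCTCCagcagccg
Rpl35 (chr2:39005117-39005146, minus strand): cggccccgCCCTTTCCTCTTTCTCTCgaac
Of the genes that rose and have a window, only Rpl14 had a long run touching the start, and long runs were also found at genes that did not pass. Touching the start, the run was 14 bases in Rpl14, 4 in Rps28, 3 in Rpl12, 1 in Rpl5 and 0 in Rps19. Rpl7a, with a run of 21 there, had a log2 fold change of 0.13 and did not pass the test.

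The table held windows for 65 of the 96 genes, 77 windows in all, among 32851 windows of every gene, each reaching from 250 bases before to 50 after the start. A run of C and T of at least 8 bases that touched the annotated start was found in 23.4% of the ribosomal protein windows and in 5.32% of all windows. The median run touching the start was 2 bases in both, so the difference lay in a minority of windows. The letters CCGGAAG, the core bound by ETS factors, were found on either strand in 35.1% against 8.86%. The YY1 core AAGATGGC was found in 10.4% against 2.75%. The GATA letters AGATAA were found in 6.49% against 11.2%. Overlap of these letters with other motifs was not removed. These are matches of letters in fixed windows, not measured binding.

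The acidic stalk recruits elongation factors to the ribosome and consists of Rplp0 with pairs of Rplp1 and Rplp2. None of the 3 genes passed the test. Rplp1 had the highest mean of all 96 genes, with 2216, 2388 and 2619 FPKM in WT and 2593, 2681 and 2625 FPKM in KO, and its groups overlapped through WT replicate 3. Its log2 fold change was 0.13 (limma, adjusted p = 0.301). Rplp2 was at 203.3, 179.7 and 218.4 FPKM in WT and 240.9, 248.3 and 226.0 FPKM in KO, with no overlap (log2 fold change 0.25, SE 0.081, limma, adjusted p = 0.0959).

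Rplp0 was the only tested core gene with a negative log2 fold change as deposited. It measured 1305, 1877 and 2109 FPKM in WT and 1973, 1408 and 1410 FPKM in KO. The low libraries were WT replicate 1 and KO replicates 2 and 3, so the split ran across the genotypes, and no difference passed (log2 fold change -0.13, SE 0.21, limma, adjusted p = 0.701). Its processed pseudogenes divided the libraries in the same way, with high and low exchanged. Gm8730 (chr8:102864845-102865798) measured 817.8, 28.3 and 30.8 FPKM in WT and 29.3, 863.7 and 897.9 FPKM in KO. Gm9625 (chr13:67810246-67811200) measured 102.0, 3.49 and 3.22 FPKM in WT and 3.37, 109.3 and 110.0 FPKM in KO. Both were high in exactly the 3 libraries in which Rplp0 was low. In these libraries all copies together took 6.76%, 6.74% and 6.84% of the fragments assigned to ribosomal protein genes and copies, against 5.39% to 5.56% in the others. The labels name no difference in how these libraries were handled, and whether they were processed differently was not tested.

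The copies are nearly the same sequence as the gene. Over the 954 coding bases of Rplp0, Gm8730 differed at 12 (98.7% identity) and Gm9625 at 24 (97.5%). The coding stretch from base 60 to base 84 holds a difference shared by both copies, in capitals, with sequences from the GENCODE M21 transcripts.
Rplp0: tttggatgattaTccaaaatgcttc
Gm8730: tttggatgattaCccaaaatgcttc
Gm9625: tttggatgattaCccaaaatgcttc
Summed with its copies, 6 genes in all, Rplp0 came to 3044, 3144 and 3531 fragments of every 1000000 in WT and 3304, 3266 and 3303 in KO. The highest library was then 1.16 times the lowest, against 1.62 times for Rplp0 alone. The summed log2 fold change was 0.03 (limma, adjusted p = 0.836). No other of the 99 copies with a mean of at least 5 FPKM spread like these: the highest to lowest ratio was 34.2 for Gm9625 and 31.7 for Gm8730, and 2.24 for the next, Rpl36-ps2.

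**Figure D3:**
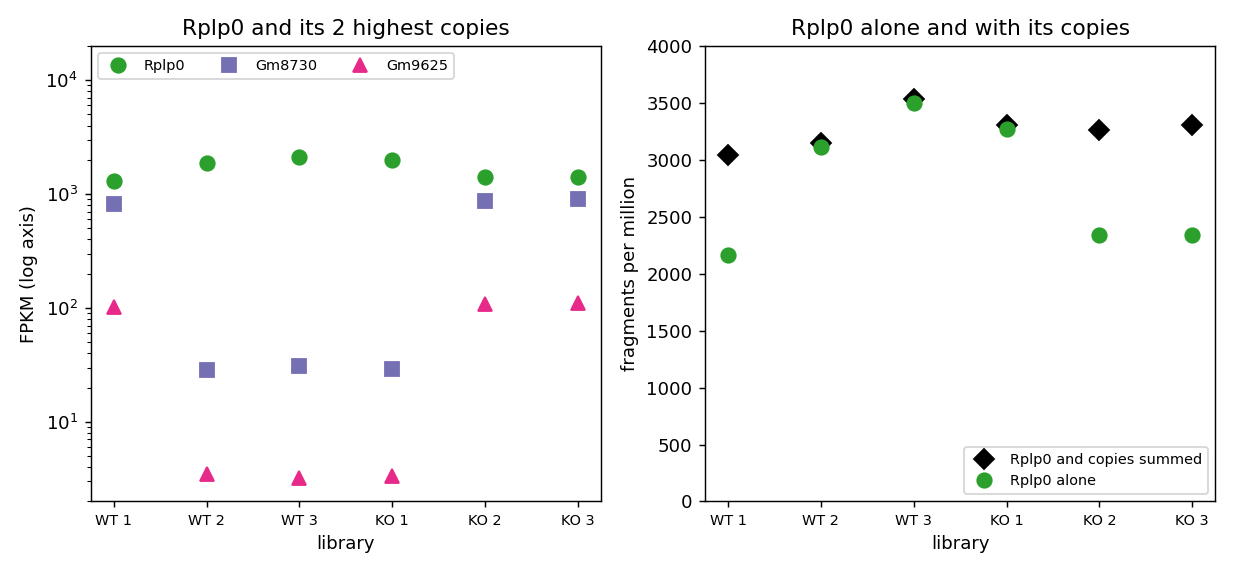
Left, FPKM of Rplp0 and its pseudogenes Gm8730 and Gm9625 in each library on a log axis. Right, fragments of every 1000000 of the library for Rplp0 alone (circles) and with its copies summed (diamonds): the sum stays between 3044 and 3531 while Rplp0 alone drops in WT replicate 1 and KO replicates 2 and 3.

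Copies held a small part of the fragments. Genes that share a KEGG protein number with a ribosomal protein gene and are annotated as pseudogenes or unnamed loci numbered 648, and they took 5.39% to 6.84% of the fragments assigned to ribosomal protein genes and copies together. Copies were then added up by KEGG number, which gave 71 sums, 69 of them led by a core gene and 2 by a gene with a -ps name. All 71 had a positive log2 fold change, with a median of 0.16 and a range of 0.03 to 0.35, and 3 were called higher (Rpl14, Rps28 and Rpl32). Another 7 core genes, Rpl12 among them, have no KEGG number and stayed as they were, and Rpl12 kept its call, so that 4 of 80 were called in that fit. The Rpl5 call was lost (limma, adjusted p = 0.0577). In 47 of the 69 sums led by a core gene that gene held at least 90% of the fragments, and in 3 (Rpl21, Rpl24 and Rpl35) it held under 50%. Rpl23a led no sum, because Rpl23a-ps3 had the higher FPKM under the same number. Rpl23a-ps3 itself held 13.2% of that sum.

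Some core genes were listed at very low levels although their products are parts of the ribosome. Rpl24 measured 0.655, 0.838 and 0.791 FPKM in WT and 1.20, 1.23 and 0.807 FPKM in KO, which is 10 to 20 fragments a library, and its mean fell below the filter. Rpl13a was at 9.94 FPKM, Rpl23a at 17.2 FPKM and Rpl35 at 27.3 FPKM over the 6 libraries, where the median gene was at 322 FPKM among the core genes. In these 4 genes a large part of the exons lay within other annotated genes: 47.0% for Rpl24 (with Gm28037, same strand), 35.4% for Rpl13a (with Gm45713, same strand), 62.3% for Rpl23a (mainly with Tlcd1, 2.60% on the same strand) and 66.2% for Rpl35 (with Wdr38, opposite strand). Low level and overlap did not always go together. Rpl21, at 49.9 FPKM, had 4.06% of its exons within other genes. Rps10 had 28.7% at 232 FPKM and Rpl5 26.7% at 259 FPKM. When summed with their copies, Rpl24 held 16.6% of the fragments and Rpl35 41.2%. The parts of overlap and of copies in the low values were not tested. The sources used here do not say whether counting used the strand.

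Diamond-Blackfan anaemia has been linked to 19 of the core genes. Of these, 2 (10.5%) rose, Rpl5 and Rps28, where 5.93% of all tested genes did, and 17 did not pass the test. All 19 had a positive log2 fold change as deposited, 15 with median-of-ratios scaling. In 16 of the 19 (84.2%) all KO libraries lay above all WT libraries as deposited, and Rpl35, Rpl35a and Rps29 overlapped. This was so for 82.9% of the tested core genes and 26.8% of all tested genes. The count rests on the scaling, since with median-of-ratios scaling only 2 of the 76 core genes had KO above WT. The median log2 fold change was 0.18, and among the other 57 tested core genes it was 0.16, with 3 higher and 47 with KO above WT. Rps19, the gene mutated most often in the disease, measured 118.7, 126.5 and 133.0 FPKM in WT and 142.1, 144.8 and 141.9 FPKM in KO. The KO values were the higher ones in every library, and the fold change of 0.18 did not pass (SE 0.055, limma, adjusted p = 0.0832). Rps24 and Rps26 were likewise higher in each KO library without passing, with log2 fold changes of 0.20 and 0.11 (limma, adjusted p = 0.121 and 0.278).

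**Figure D4:**
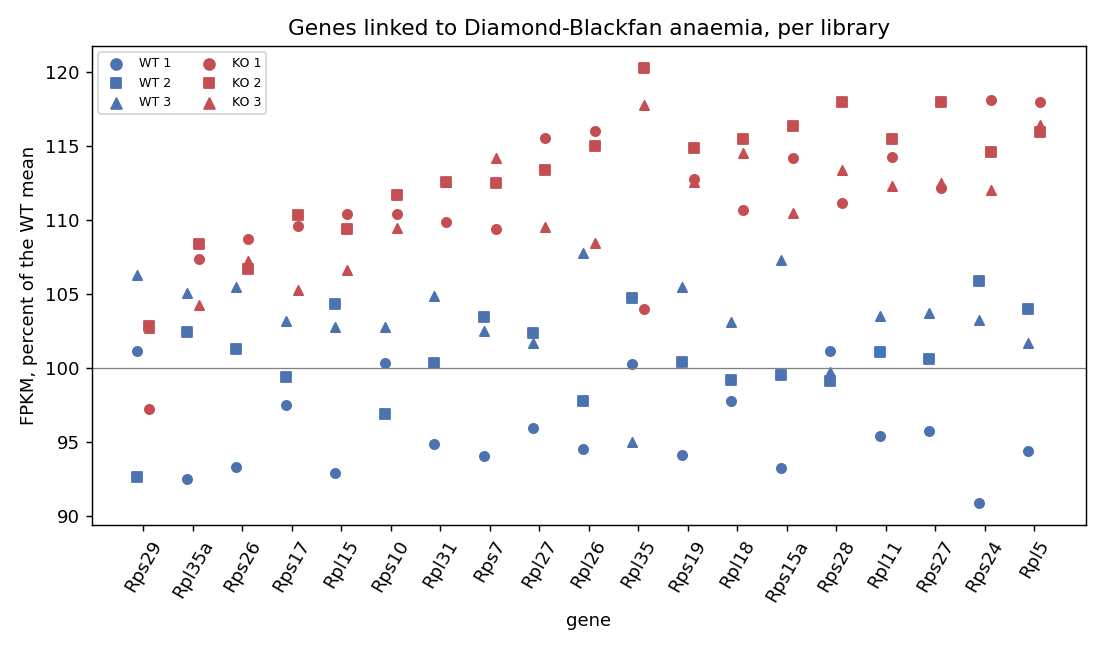
FPKM of the 19 Diamond-Blackfan genes in each library, as a percent of the WT mean of the gene (blue WT, red KO; circle, square and triangle for replicates 1, 2 and 3), ordered by log2 fold change. Apart from Rpl35, Rpl35a and Rps29, every red symbol lies above every blue symbol of the same gene as deposited.

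Paralogs can replace a core protein in some ribosomes, and several are known for tissue-restricted expression. Of the 7, 5 were tested and none was called higher or lower, while 2 had an unadjusted p under 0.05. Levels per length in WT relative to the partner were 79.8% for Rps27l against Rps27, 44.9% for Rps27rt against Rps27, 14.6% for Rpl22l1 against Rpl22 and 11.6% for Rpl7l1 against Rpl7. In KO these were 73.8%, 41.6%, 14.8% and 11.98%. Library by library the groups overlapped for each of these pairs. Rps27l was at 67.9%, 90.2% and 80.7% of Rps27 in WT and at 76.0%, 69.4% and 76.3% in KO. Rps27 itself held 53.2% to 59.4% of the fragments summed under its KEGG number, so its ratios depend on how fragments of copies were assigned. Rpl39l, known from male germ cells in mice, had the largest negative log2 fold change of the 90 genes. It measured 0.812, 1.48 and 1.89 FPKM in WT and 0.596, 0.536 and 1.001 FPKM in KO, with overlapping groups and few fragments (7 to 25 a library), and it did not pass (log2 fold change -0.47, SE 0.20, limma, adjusted p = 0.174). Rpl3l, the heart and muscle form of Rpl3, had 1 fragment in each WT library and 3, 4 and 4 in KO, and Rpl36al was at 1.01 ± 0.306 FPKM in WT and 0.919 ± 0.0865 FPKM in KO. Neither was tested.

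Of the 11 protein-coding genes with -ps names, 8 were tested and none was called, with 2 at an unadjusted p under 0.05. Rpl7a-ps3 had the largest fold change of all 90 genes, on 53 to 95 fragments a library. It measured 4.98, 4.10 and 5.86 FPKM in WT and 7.31, 6.26 and 7.63 FPKM in KO (log2 fold change 0.44, SE 0.12, limma, adjusted p = 0.0716). Rpl7a-ps5 was at 9.54 ± 0.620 FPKM in WT and 11.7 ± 0.625 FPKM in KO (log2 fold change 0.27, SE 0.069, limma, adjusted p = 0.0577). Rpl13-ps3, Rpl13a-ps1 and Rpl9-ps1 had at most 1 fragment in any library and were not tested. Rps19bp1 was at 24.2 ± 1.41 FPKM in WT and 29.1 ± 1.85 FPKM in KO (log2 fold change 0.25, SE 0.068, limma, adjusted p = 0.0634).

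Fau and Rack1, which encode ribosomal proteins under other names, had fold changes of like size and did not pass. Fau, which encodes the small subunit protein eS30 fused to a ubiquitin-like part, showed a log2 difference of 0.16 (limma, adjusted p = 0.122). Rack1, the scaffold on the small subunit, was at 0.15 (adjusted p = 0.0922, limma). Of the 77 mitochondrial ribosomal protein genes, which serve a separate ribosome, 76 were tested. Of these 1 (1.32%) rose, 25 (32.9%) had KO above WT and the median log2 fold change was 0.10. Over all tested genes 5.93% rose and 26.8% had KO above WT. Among 360 other protein-coding genes of at least 100 FPKM, 24 rose and 47 fell, 95 had KO above WT and the median was 0.04.

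Other genes known for TOP messenger RNAs mostly had positive fold changes, as did most tested genes as deposited. Of 18 elongation factor, initiation factor and related genes, 15 were positive as deposited and 10 with median-of-ratios scaling. Over all tested genes 71.4% and 48.6% were positive. In the test 1 of the 18 rose and 1 fell, with a median log2 fold change of 0.12. KO lay above WT in 8 of them (44.4%), against 26.8% of all tested genes. Eef1g and Eef1d are subunits of the same exchange factor, which reloads the elongation factor eEF1A with GTP. Eef1g rose from 315.0 ± 9.01 to 365.8 ± 7.85 FPKM (log2 fold change 0.22, limma, adjusted p = 0.0409), and Eef1d fell from 74.8 ± 3.33 to 64.6 ± 0.505 FPKM (log2 fold change -0.21, limma, adjusted p = 0.0469). Tpt1, a classical TOP gene, was at 582.4 ± 11.1 FPKM in WT and 581.9 ± 6.46 FPKM in KO. Of 10 genes listed for the control of TOP translation, with Myc included, 2 rose (20%), where 5.93% of all tested genes did. Rptor, the mTORC1 subunit that binds substrates, went from 5.37 ± 0.332 to 7.79 ± 0.334 FPKM (log2 fold change 0.47, limma, adjusted p = 0.0125). Eif4ebp1, a repressor of cap binding that mTORC1 switches off, went from 23.4 ± 2.61 to 32.7 ± 2.87 FPKM (log2 fold change 0.47, limma, adjusted p = 0.0334). On the log2 fold change scale Larp1 was at 0.19 (limma, adjusted p = 0.0702), Myc at 0.28 (limma, adjusted p = 0.0876) and Mtor at 0.04. With median-of-ratios scaling none of the calls in these lists held: Eef1g was at 0.10, Eef1d at -0.32, Rptor at 0.36 and Eif4ebp1 at 0.35 (limma, adjusted p = 0.533, 0.0549, 0.0571 and 0.0970).

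No gene passed among 7 dedicated chaperones and importers of ribosomal proteins (median 0.14), 7 genes of ribosome rescue (median 0.03) and 3 genes of the p53 arm. The last were Trp53 at a log2 fold change of 0.16, Mdm4 at 0.17 and Mdm2 at 0.11 (limma, adjusted p = 0.0879, 0.154 and 0.266). Tsr2, the chaperone of Rps26 whose loss also causes Diamond-Blackfan anaemia, was at 0.14 (limma, adjusted p = 0.254).

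Markers of other cells moved beside these changes. Of 6 megakaryocyte markers 5 rose, and their summed level was 142.2 to 268.0 FPKM in WT and 346.0 to 622.6 FPKM in KO. Of 7 tested globin genes 2 fell, with sums of 113564 to 130516 FPKM in WT and 90759 to 100862 FPKM in KO. None of the 8 hepatoblast, 7 macrophage, 5 neutrophil and 5 endothelial markers passed, and no marker of any list was at 0 in all libraries. Summed levels of hepatoblast markers were 404.2 to 2395 FPKM in WT and 1052 to 1437 FPKM in KO. Those of macrophage markers were 74.8 to 137.7 and 70.6 to 118.7 FPKM, and those of neutrophil markers 595.1 to 808.1 and 695.8 to 818.6 FPKM. Endothelial markers summed to 8.98 to 23.5 and 14.7 to 21.4 FPKM, and lymphoid markers to 2.96 to 4.45 and 3.43 to 4.56 FPKM. The part of these cell types in the ribosomal protein values was not tested.

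How many ribosomal protein genes were called depended on the processing, and their median stayed above that of all tested genes. Over the 22 ways of processing the number called higher ran from 0 to 29, and none was called lower in any of them. The 29 were found with TPM scaling without Gm23935, where 12.3% of all tested genes were higher, and scaling to the ribosomal protein genes gave 0 against 1.45% of all. The median log2 fold change of the ribosomal protein genes exceeded that of all tested genes by 0.03 to 0.13. Scaling a library shifts both medians nearly alike, and a block or a robust prior leaves the fold changes as they were. Most of these ways could therefore hardly change the gap and are not separate checks of it. The value of 0.13 was found with no filter, where the median of all genes was 0.03. The value of 0.03 was found without WT replicate 1, and scaling to the ribosomal protein genes put their own median at 0.00 by construction.

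**Figure D5:**
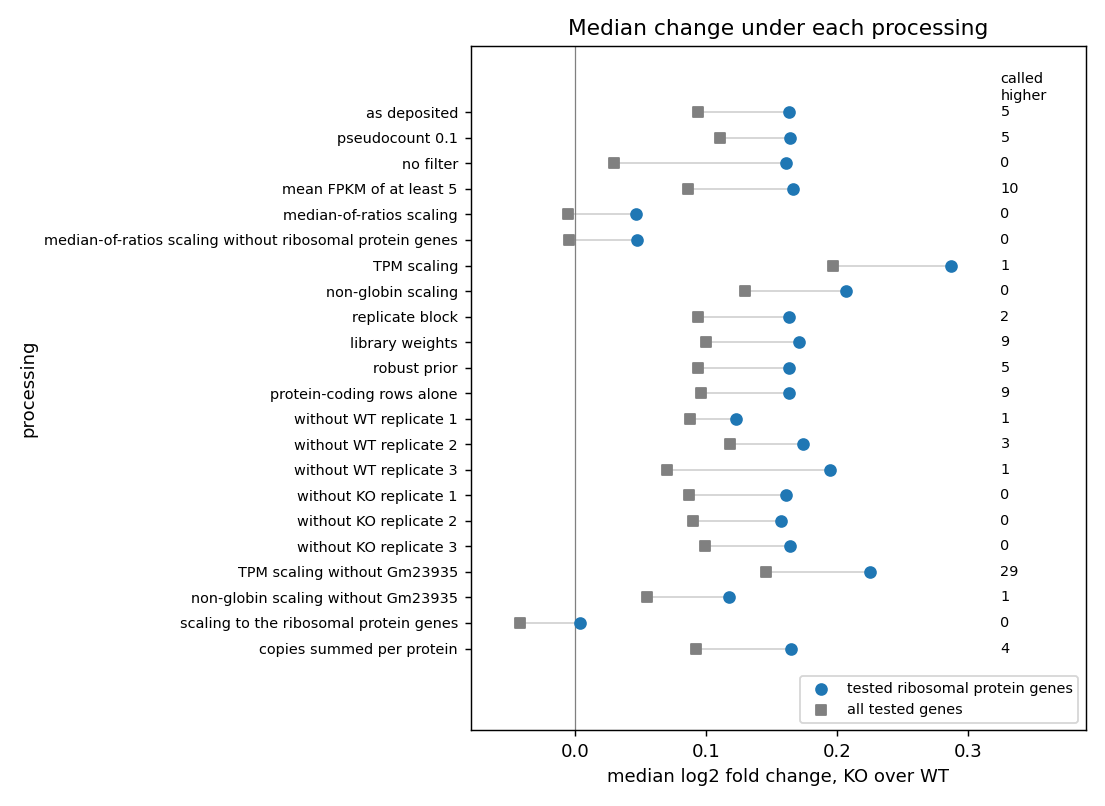
Median log2 fold change, KO over WT, of the tested ribosomal protein genes (circles) and of all tested genes (squares) under each processing, with the number of ribosomal protein genes called higher at the right. The circles lie right of the squares in every line, near 0.05 with median-of-ratios scaling and at 0.29 with TPM scaling. Scaling moves both symbols of a line nearly alike, so most lines are not separate checks of this order.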

How the data were processed

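FPKM of every gene were deposited as a single table, per the file headers. Per the labels' protocols, TRIzol was used for total RNA and both ends of each fragment were read for 150 bases. Aligner, counter, build, normalization details and strand: not given in the sources used here. Among 26022 lines below the header, 8 without a gene identifier were left out. Positions of 78 of the 96 genes equal GENCODE M21, so coordinates are given as GRCm38. Of the low values (up to 8 fragments), 99.0% to 99.1% per library came out as whole fragments within 0.02, which gave depth and fragments. Genes with few fragments, such as Rpl24 and Rpl3l, carry a large counting error.

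Deposited FPKM were put on the log2 scale as log2(FPKM + 1), which understates the change of low genes. Groups were compared with limma 3.58.1 under R 4.3.3 (lmFit, eBayes with trend, two-sided), over the 11142 genes averaging 1 FPKM or more, without a block, with Benjamini-Hochberg adjustment and a threshold of 0.05. The fit was tried on simulated data in which noise was drawn separately for each gene. These had no shift shared by the genes of a library, so the trial cannot show how such a shift acts on the calls. The members, gene lists, copies and tests were chosen with earlier results of these data known. Genes named are Gata1, all members called, the 5 highest means, and the 5 highest and 5 lowest fold changes, of which 2 were negative. Also named are Diamond-Blackfan genes of small p with Rps19, Rpl5 and Rpl11, paralogs with partners, members not tested, and of other lists the smallest p-values. Others, such as Rpl35a, Rps24, Rps26, Rpl13a, Rpl23a, Tpt1, Rpl7a and the copies of Rplp0, were picked with their values in view. Members the rule takes but the text omits, such as Rpl18 and Rpl27 of the Diamond-Blackfan genes, enter the counts.

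Copies were assigned by the deposited KEGG number. Same-numbered libraries did not deviate together (Pearson r -0.10, 0.01 and 0.26 across genes), so numbers were not taken as pairs. Alternatives were other pseudocounts and filters, scalings, weights, a robust prior, protein-coding genes alone, a replicate block and each library left out. Summed copies, scalings without Gm23935 and scaling to the ribosomal protein genes were added after seeing the data. Tables and figures were made in Python 3.11.15 (pandas 2.3.3; numpy 2.4.6; matplotlib 3.10.9).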

Additional observations from a re-analysis of the deposited data

How the results depend on the processing

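The number of ribosomal protein genes called higher was 5 as deposited. It was 0 with no filter, with median-of-ratios scaling (with or without these genes), with non-globin scaling and with scaling to the ribosomal protein genes. It was 1 with TPM scaling and with non-globin scaling without Gm23935, 9 with library weights and with protein-coding genes alone, 10 at a mean FPKM of at least 5, and 29 with TPM scaling without Gm23935, where 12.3% of all tested genes were higher. Leaving out each library gave 0 to 3: 1 without WT replicate 1 or 3, 3 without WT replicate 2, and 0 without each KO library. The cause was not tested. No gene was called lower in any of these.

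With the replicate number as a block 2 were called higher. The numbers share no stated origin, and not every library correlated best with its own number.

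The median log2 fold change, 0.16 as deposited, was 0.05 with either median-of-ratios scaling (0.046 and 0.047), 0.29 with TPM scaling, 0.23 with TPM scaling without Gm23935 and 0.0035 with scaling to the ribosomal protein genes. Non-globin scaling gave 0.21. Over all genes, 661 higher and 403 lower became 1374 and 336 with TPM scaling without Gm23935, and 162 and 901 with scaling to the ribosomal protein genes. The share of summed FPKM was 1.502 points higher in KO, and 0.849 to 1.89 without 1 library. Of 637 values of 32 named genes under alternatives, 523 kept direction and side of the threshold, 66 lost the threshold, 19 passed it and 29 changed sign, none of these called. With scaling to the ribosomal protein genes, values turned to -0.0088 for Rpl3, -0.0078 for Rpl36a, -0.017 for Rpl7, -0.025 for Rpl8, -0.028 for Rplp1, -0.016 for Rps10, -0.105 for Rps2, -0.107 for Rps2-ps6, -0.067 for Rps27l, -0.075 for Rps27rt, -0.145 for Rps29 and -0.059 for Rps3a1. With median-of-ratios scaling, over all genes and without the ribosomal protein genes, they turned to -0.0625 and -0.0617 for Rps2, -0.0651 and -0.0644 for Rps2-ps6, -0.0247 and -0.0240 for Rps27l, -0.0324 and -0.0317 for Rps27rt, -0.1024 and -0.1016 for Rps29 and -0.0167 and -0.0160 for Rps3a1. Non-globin scaling without Gm23935 gave -0.031 for Rps29. Leaving out 1 library gave -0.34 to 0.010 for Rplp0, -0.0047 to 0.14 for Rps2-ps6, -0.048 to 0.19 for Rps27l and -0.039 to 0.060 for Rps29. Depth limits Rpl24, Rpl3l and Rpl39l.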
